A study of Homo sapiens with 4 samples.

Results

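The miR-302 cluster and the cluster of miR-371, miR-372 and miR-373 are 2 groups of small regulatory RNAs known from human embryonic stem cells and germ cell tumours. On the array card used here they were represented by 6 of the 377 human miRNA assays: hsa-miR-302a, hsa-miR-302b, hsa-miR-302c, hsa-miR-371-3p, hsa-miR-372 and hsa-miR-373, written without the prefix from here on. The assays were picked by name, with their detection and the difference of miR-373 between exosome fraction and cells already in view, so those values are a description. The samples came from RPMI8226, an established cell line of human multiple myeloma, kept in AIM-V medium for 24 h. There were 4 groups of 1 sample each: cells at 20% oxygen (normoxia), cells at 1% oxygen (hypoxia), and the exosome fraction of the medium at 20% and at 1% oxygen. Exosomes are vesicles shed by cells, and the fraction was precipitated from the medium with a polymer reagent that does not purify vesicles from all else in it. No value has a replicate error, and no test between groups was possible.

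A miRNA guides a repressor complex to messenger RNAs through its seed, the bases 2 to 8 from its 5′ end, and miRNAs with the same seed share many targets. The miR-302 miRNAs, miR-372 and miR-373 are among the most abundant miRNAs of pluripotent cells, where they restrain inhibitors of the cell cycle, among them CDKN1A and LATS2. Both clusters are normally silent in differentiated cells, and miR-371 to miR-373 are known as blood markers of germ cell tumours. In both clusters several miRNAs are made from a shared primary transcript.

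The mature sequences below are shown because assays with nearly the same 5′ end gave very different readings. They are the RefSeq sequences (GRCh38.p14) matched to all 6 assays by name. Older unmarked names were read as the 3p strand, and miR-371-3p as miR-371a-3p. Bases 2 to 8 are in capitals, written 5′ to 3′.
miR-302a: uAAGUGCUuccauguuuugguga
miR-302b: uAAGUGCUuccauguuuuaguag
miR-302c: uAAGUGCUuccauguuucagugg
miR-372: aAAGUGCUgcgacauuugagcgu
miR-373: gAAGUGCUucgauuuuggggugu
miR-371-3p: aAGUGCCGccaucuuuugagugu

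The seed AAGUGCU was shared by 5 of the 6, and 12 of the 2370 mature human miRNAs in the sequence table (0.506%) hold it. In miR-371-3p the core AAGUGC lies at bases 1 to 6, so its seed is AGUGCCG. Read without gaps from the 5′ end, miR-302a was identical to miR-302b and to miR-302c at 20 of 23 bases each. miR-373 matched miR-302a at 17 and miR-372 at 16 of 23 bases. Of the 14 bases after base 9, miR-373 shared 9 with miR-372.

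The hairpins of miR-302b, miR-302c, miR-302a, miR-302d and miR-367 lie on the minus strand within 684 bases at chr4:112647874-112648557 (GRCh38.p14), inside the bounds of the long noncoding RNA gene MIR302CHG. Those of miR-371a, miR-372 and miR-373 lie on the plus strand within 1099 bases at chr19:53787675-53788773. Only 748 bases separate the miR-372 hairpin from that of miR-373. The miR-373 hairpin at chr19:53788705-53788773 is shown because its product alone among the 6 was detected in every sample. The capitals mark that product, bases 44 to 66 of 69.
MIR373: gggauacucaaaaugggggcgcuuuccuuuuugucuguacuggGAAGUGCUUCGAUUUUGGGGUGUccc

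Each assay gave 1 threshold cycle (Ct) per sample, the point in the PCR where the signal passes a set level. A lower Ct means more template, and 1 cycle is a 2-fold step at full efficiency. The highest value in the table is 35, and wells at 35 were read as not detected. Of all 377 assays, 41.1% to 58.6% were under 35 in a sample. Of 8 miRNAs listed for blood and lymphoid cells in general, 7 were under 35 in both cell samples, with miR-142-3p at 24.95 and 24.97 and miR-342-3p at the ceiling. None of the 3 red cell and platelet assays was seen in cells, and of these only miR-451 was seen in the exosome fraction, at 33.2 in normoxia. Ct values clustered near whole cycles: 53.7% to 71.6% of the detected assays per sample lay within 0.1 of one, as did 4 of the 7 detected wells of the 6 assays.

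The embryonic miRNAs were for the most part not detected, with the exception of miR-373. Of their 24 wells, 17 stood at the ceiling and 7 were under 35, against 757 of all 1508 miRNA wells under 35. In normoxic cells 2 of 6 were under 35, where 43% of all assays were. In hypoxic cells it was 1 of 6, against 41.1%. The normoxic exosome fraction had 1 of 6, against 58.6%, and the hypoxic exosome fraction 3 of 6, against 58.1%. Under Ct 32 none of the 6 was found in cells, where 26.3% (normoxia) and 27.9% (hypoxia) of all assays were. In the exosome fraction miR-373 alone was under Ct 32, against 49.1% and 49.6% of all assays. miR-373 was under 35 in all 4 samples, as were 36.6% of all assays, while 2 of 6 were at the ceiling in all 4, as were 33.4% of all assays. The name embryonic thus describes where the clusters are known to be active. Here 1 of the 6 was measured throughout, and the share at the ceiling in all 4 samples was near that of all assays. The 6 were picked with their detection in view, so no trait of the group can be read from these counts.

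miR-302a, a main product of the pluripotency cluster, stood at 35 in all 4 samples. miR-302b, made from the same transcript, was at Ct 33.5 in normoxic cells and at 35 in the 3 other samples. miR-302c was at 35 in both cell samples and in the normoxic exosome fraction, and at 34.95 in the hypoxic one, 0.0456 cycles under the ceiling. No sample showed more than 1 of these 3 assays, and no sample pair showed the same one. miR-367, which lies beside them in the cluster and has an unrelated seed, stood at 35 in all 4 samples; miR-302d was not analysed here.

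miR-371-3p was at the ceiling in all 4 samples. miR-372, known to repress LATS2 in germ cell tumours, was at 35 in both cell samples and the normoxic exosome fraction and at 34.96 in the hypoxic one. For the neighbouring miR-373 the cells gave a Ct of 32.99 in normoxia and 32.5 in hypoxia, and the exosome fraction 21.6 in normoxia and 21.96 in hypoxia. Its exosome values are far from its cell values in raw Ct, and the 2 within each compartment are close together. Only the exosome products were pre-amplified before the card. The median Ct of the miRNAs detected in all 4 samples was also lower there, at 23.96 and 23.99 against 30.9 and 30.97 in cells. Neighbours on chromosome 19 therefore gave opposite readings: in the normoxic exosome fraction miR-373 stood 13.4 cycles under the ceiling at which miR-372 and miR-371-3p were held. In the hypoxic exosome fraction the next of the 6 was miR-302c, 12.99 cycles behind miR-373. In normoxic cells, where miR-373 itself stood only 2.01 cycles under the ceiling, the gap to miR-302b was 0.53 cycles. Efficiencies of different assays were not measured, so these gaps are in cycles and are not ratios of molecules.

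**Figure D1:**
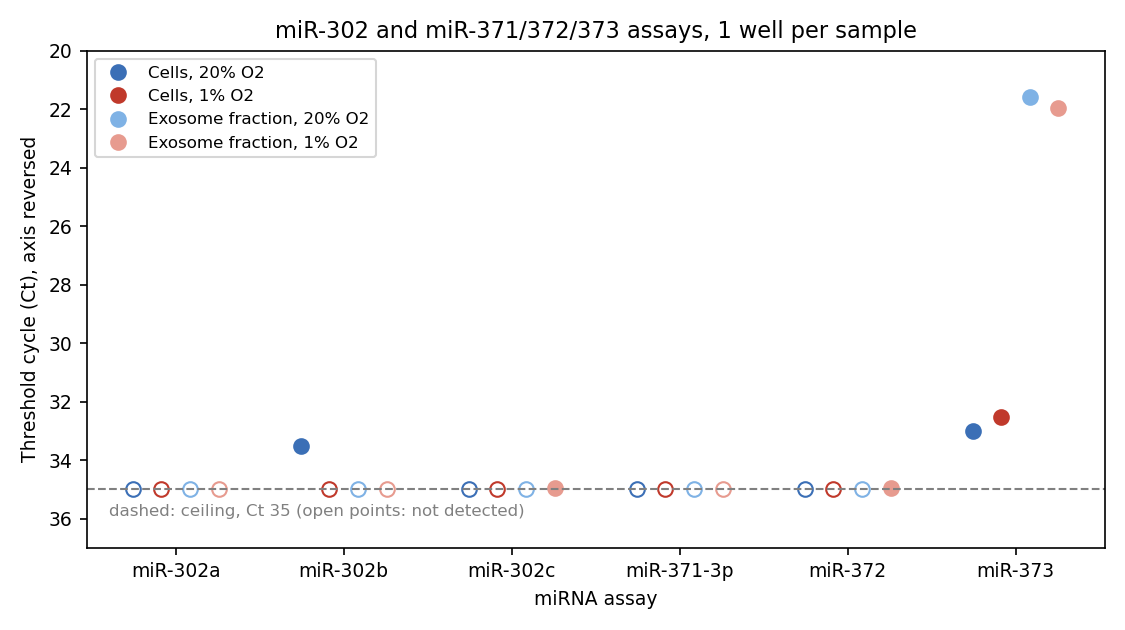
Ct of the 6 assays (horizontal axis) in the 4 samples (colours), 1 well each, with the vertical axis reversed so that more template is higher; open points on the dashed line are at the ceiling of 35. Only miR-373 is off the ceiling in every sample, at 32.99 and 32.5 in cells and 21.6 and 21.96 in the exosome fraction. Only the exosome products were pre-amplified, so heights do not compare amounts between cells and exosome fraction.

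To set the exosome fraction against the cells, each sample was centred on its median Ct over the 138 miRNAs detected in all 4 samples, and the sign was turned so that a higher centred level (log2) means more. These medians were 30.9 and 30.97 in cells and 23.96 and 23.99 in the exosome fraction. Only the exosome products were pre-amplified before the card, so the compartment and the pre-amplification cannot be told apart. The centred level of miR-373 at 20% and 1% oxygen was -2.08 and -1.56 in cells and 2.39 and 2.02 in the exosome fraction. It thus lay below the median miRNA in both cell samples and above it in both exosome samples.

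The centred difference, exosome fraction minus cells, was 4.47 in normoxia, or 22.2-fold, and 3.59 in hypoxia, or 12.0-fold. Both were the highest among the 138 miRNAs. miR-20b followed with 3.10 (8.55-fold) and 2.80 (6.95-fold). The median difference of the 138 was -0.44 in normoxia and -0.83 in hypoxia, and 55 and 43 of them lay above 0. A difference of at least 4-fold towards the exosome fraction in both oxygen conditions was found for 4 of 138 assays (2.9%), which were miR-373, miR-20b, miR-361-5p and miR-92a; 16.7% were at least 4-fold lower there. The 138 leave out 50 assays that were at the ceiling in both cell samples and under 35 in both exosome samples. Their differences have no upper bound here, so some could be past 4-fold or above that of miR-373. Since miR-373 was taken up with this difference in view, its place in the order is no test. Centred on the 89 miRNAs under Ct 32 in all 4 samples, the differences were larger, at 5.22 and 4.58.

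**Figure D2:**
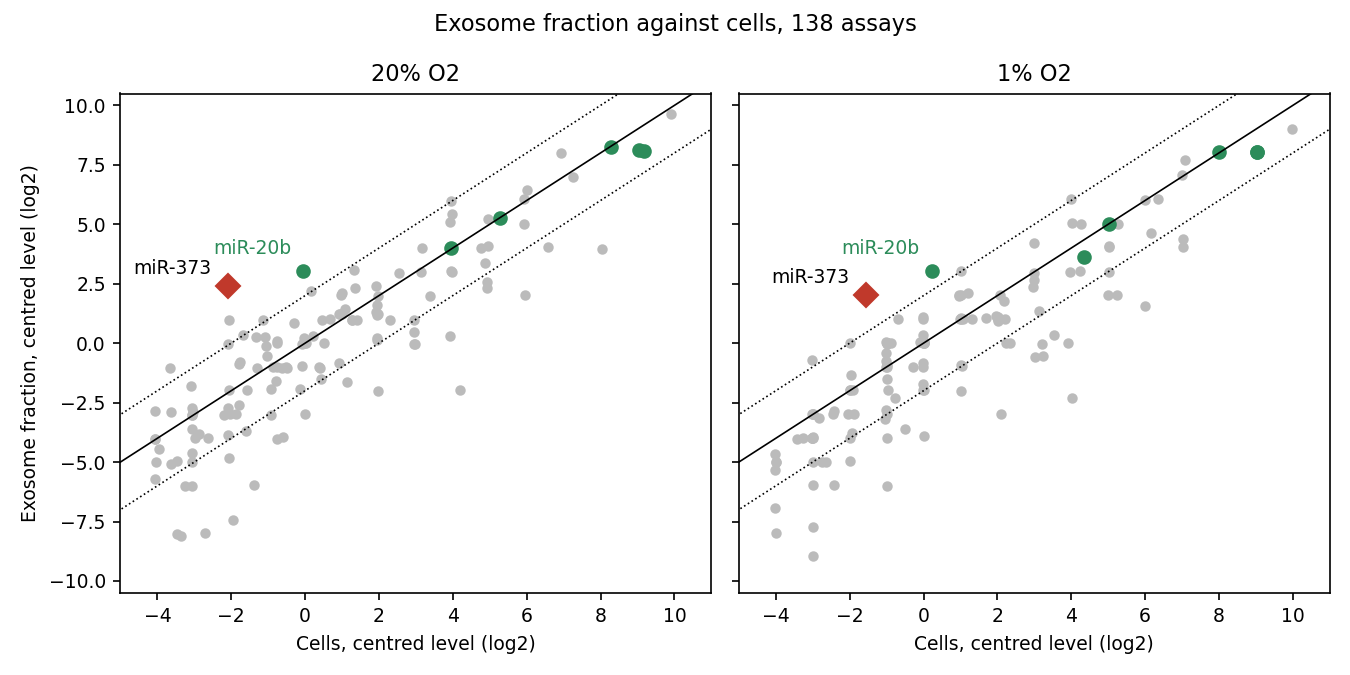
Centred level (log2) in the exosome fraction against cells at 20% oxygen (left) and 1% oxygen (right) for 138 miRNAs, with miR-373 as a red diamond and miR-17, miR-20a, miR-20b, miR-93, miR-106a and miR-106b in green; the solid line marks equality and the dotted lines 4-fold. miR-373 lies farthest above the line in both panels, by 4.47 and 3.59, and miR-20b next.

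The order of Ct values placed miR-373 among the higher Ct values in cells and among the lower ones in the exosome fraction. In normoxic cells it was number 108 of 138 from the lowest Ct, directly between miR-130b (32.97) and miR-135a (32.99). In hypoxic cells it was number 101, with miR-140-3p before it at 32.002 and miR-194 after it at 32.8. In the normoxic exosome fraction it was number 29, between miR-26a (21.4) and miR-125b (21.6), and in the hypoxic one number 33, between miR-26a (21.96) and miR-126 (21.97). The gap to its nearest neighbour was under the SD between the 4 wells of the U6 control in a cell sample (0.15 and 0.12) in every sample except hypoxic cells, where it was 0.31 cycles. Those U6 wells are the only repeat in the data. Their mean Ct was 18.8 in both cell samples, and all stood at 35 in the exosome fraction. Their SD thus gives no spread for wells at the Ct of miR-373 in cells, nor for the exosome fraction. Ct values clustered near whole cycles, and the part of that clustering in these small gaps and exact ranks was not tested.

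Other assays at a similar Ct in cells had higher Ct values in the exosome fraction than miR-373. There were 21 assays with a Ct from 32 to 34 in both cell samples and under 35 in both exosome samples, a range chosen after the values were seen; 2 further assays in that range were not detected in either exosome sample. The 20 others ran from 23.6 to 31.97 in the normoxic exosome fraction, with a median of 26.97, and from 23.98 to 32.9 in the hypoxic one, with a median of 27.4. miR-128, a miRNA abundant in brain, was the lowest of the others in both. miR-373 stood about 2 cycles under it in each, at 21.6 and 21.96.

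**Figure D3:**
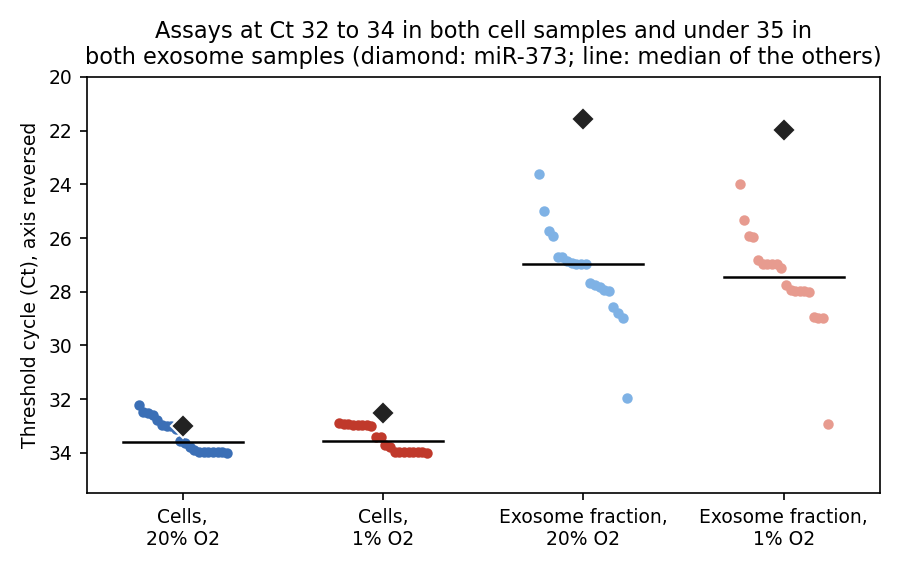
Ct of the 21 assays that lay between 32 and 34 in both cell samples and under 35 in both exosome samples, in each of the 4 samples, with the vertical axis reversed; dots are 20 assays in order of Ct, the line is their median and the diamond is miR-373. In both exosome samples the diamond, at 21.6 and 21.96, is above every dot.

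The miRNAs with the pattern most like that of miR-373 over the 4 samples were found by the root mean square difference of centred levels, each assay taken relative to its own mean. These were miR-20b (0.56), miR-361-5p (0.82), miR-130b (0.89), miR-92a (1.01) and miR-128 (1.05), against a median of 2.33 over the 137 other miRNAs. miR-20b was 30.96 and 30.7 in cells and 20.9 and 20.96 in the exosome fraction. It thus made a step between compartments in the same direction, and a smaller one.

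For the other 5 assays only bounds exist. miR-302b had a centred level of -2.61 in normoxic cells, and the ceiling of the normoxic exosome fraction corresponds to -11.04. Read as a bound, miR-302b was at least 345-fold lower there relative to the median miRNA. This rests on 1 well at Ct 33.5 and on taking the well at 35 as low template, which was not tested. miR-103, named after its values were seen, was at 29.06 and 28.99 in cells and also at 35 in both exosome samples. Of the 24 miRNAs with a Ct from 33 to 34 in normoxic cells, 3 were at the ceiling in the normoxic exosome fraction, and of all 162 detected in normoxic cells 14 were. miR-302c and miR-372 had centred levels of -10.97 each in the hypoxic exosome fraction, while the ceiling in hypoxic cells lies at -4.03, so no direction between the compartments can be given for them. None can be given for miR-302a and miR-371-3p either, which were at the ceiling in all 4 samples.

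The study asked how hypoxia changes miRNAs inside the cells and in the exosome fraction. Log2 changes are hypoxia minus normoxia, normalized to the mean of the U6 wells in cells and to the ath-miR159 spike-in in the exosome fraction. miR-373 was measured in both cell samples, and its log2 change was 0.45, or 1.37-fold higher in hypoxia. That was within 2-fold, where 13.6% of the 147 miRNAs measured in both cell samples were past it, and 35 of the 147 had a higher change. In the exosome fraction its log2 change was -0.34, or 1.26-fold lower in hypoxia. This too was within 2-fold, where 7.39% of 203 miRNAs were past it, and 43 of the 203 had a lower change. For comparison, miR-210, the best known hypoxia-induced miRNA, went from Ct 30.998 to 27.4 in cells, a log2 change of 3.55. In the exosome fraction the log2 change of miR-210 was 0.39, or 1.31-fold higher in hypoxia. The authors' deposited table gives 1.3704 and 0.7913 for the hypoxia over normoxia ratio of miR-373 in cells and exosome fraction.

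The response of miR-373 in the exosome fraction minus that in cells was -0.79 on the log2 scale, or 1.73-fold, again within 2-fold, where 15.9% of the 138 miRNAs measured in all 4 samples were past it. The median of the 138 was -0.17, and 20 of them had a lower value. Cells and exosome fraction moved in opposite directions for miR-373, as they did for 72 of the 138 miRNAs (52.2%). Its centred excess in the exosome fraction was 3.59 in hypoxia and 4.47 in normoxia. Of its 4 Ct values, those in normoxic cells and in the hypoxic exosome fraction lay within 0.1 of a whole cycle; the part of that clustering in the differences was not tested.

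**Figure D4:**
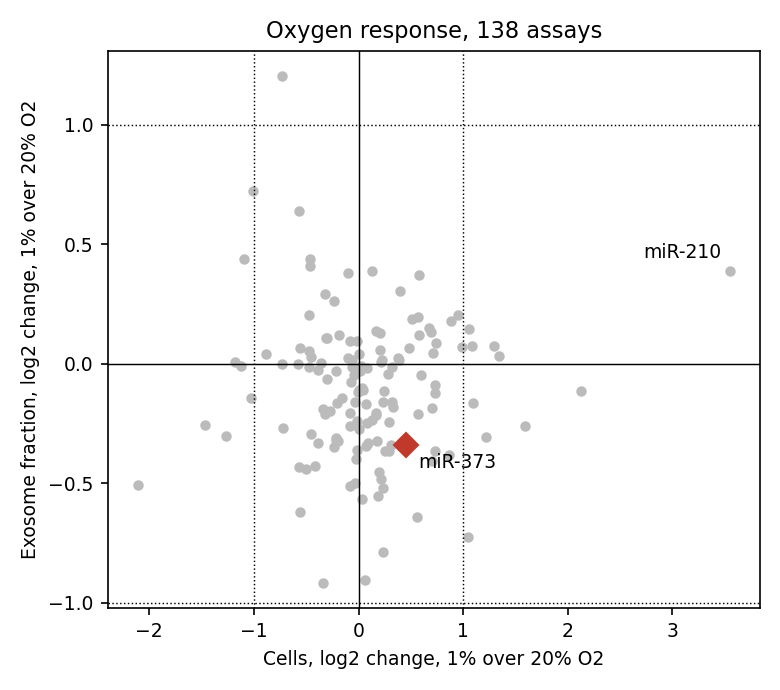
Log2 change of 138 miRNAs under hypoxia in cells (horizontal axis, U6-normalized) and in the exosome fraction (vertical axis, normalized to the spike-in); dotted lines mark 2-fold. miR-373, the red diamond, is at 0.45 and -0.34, within 2-fold on both axes and inside the main cloud.

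No other of the 6 assays had a measured oxygen response. miR-302b was seen in normoxic cells only, which makes it at least 2.80-fold lower in hypoxia if its well at 35 is taken as low template. Among the cell samples, 3.98% of the 377 assays were seen in the normoxic one only. Of the 24 miRNAs with a Ct from 33 to 34 in normoxic cells, 8 were at the ceiling in hypoxic cells. miR-302c and miR-372 were seen in the hypoxic exosome fraction only, as were 4.24% of all assays, and were at least 1.07-fold higher each, bounds close to no change. Of the 7 miRNAs with a Ct from 34 to 35 in the hypoxic exosome fraction, 4 were at the ceiling in the normoxic one. The authors' deposited table lists ratios for these wells as though 35 had been measured, such as 0.3574 for miR-302b in cells, 1.071 for miR-302c and 1.0667 for miR-372 in the exosome fraction.

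Besides the 5 assays with the seed AAGUGCU, 3 further assays of the card have it. They belong to the placental cluster on chromosome 19, and miR-520e is shown because it alone among them was detected, again with its seed in capitals.
miR-520e: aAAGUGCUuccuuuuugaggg
miR-520a-3p and miR-520b stood at 35 in all 4 samples. miR-520e was at Ct 25.8 (normoxia) and 27.0 (hypoxia) in cells, and at 35 (normoxia) and 18.98 (hypoxia) in the exosome fraction. Its hypoxic exosome well lay 16.0 cycles under the ceiling. Log2 changes of the 203 miRNAs measured in both exosome samples ran from -2.83 to 2.18. Each reading of miR-520e is 1 well, and whether a well failed was not tested. miR-520e was identical to miR-373 at 16 of 21 bases. Across the seed group of 8, 3 were detected in normoxic and 2 in hypoxic cells, and from the exosome fraction 1 at 20% and 4 at 1% oxygen. Over all assays the shares detected in these samples were 43%, 41.1%, 58.6% and 58.1%, so 3 of 8 and 4 of 8 lie near them. miR-373 was the only one of the 8 seen in all 4 samples. Fewer than 3 of the 8 were under Ct 32 in any sample, where 26.3% to 49.6% of all assays were.

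A further 7 assays carry the same core 1 base later, with the seed AAAGUGC. They include the proliferation-linked miRNAs of the miR-17 family, and the sequence of miR-20b is shown as the member closest in pattern to miR-373.
miR-20b: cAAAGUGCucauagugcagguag
Read without gaps from the 5′ end, with the core offset by 1 base, miR-20b matched miR-373 at 8 of 23 bases. Of these 7, 6 were under Ct 32 in every sample: miR-17, miR-20a, miR-20b, miR-93, miR-106a and miR-106b. The seventh, miR-519d, was at the ceiling in cells and at 32.99 and 32.1 in the exosome fraction. The centred differences between exosome fraction and cells of the 6 had a median of -0.03 in normoxia and -0.35 in hypoxia, from -1.10 and -1.01 for miR-106a to 3.10 and 2.80 for miR-20b. The median over all 138 was -0.44 and -0.83. miR-20b alone among the 6 had an exosome excess of 4-fold or more at both oxygen levels. Under hypoxia none of the 6 was past 2-fold in either compartment, with medians of -0.15 in cells and -0.13 in the exosome fraction.

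**Figure D5:**
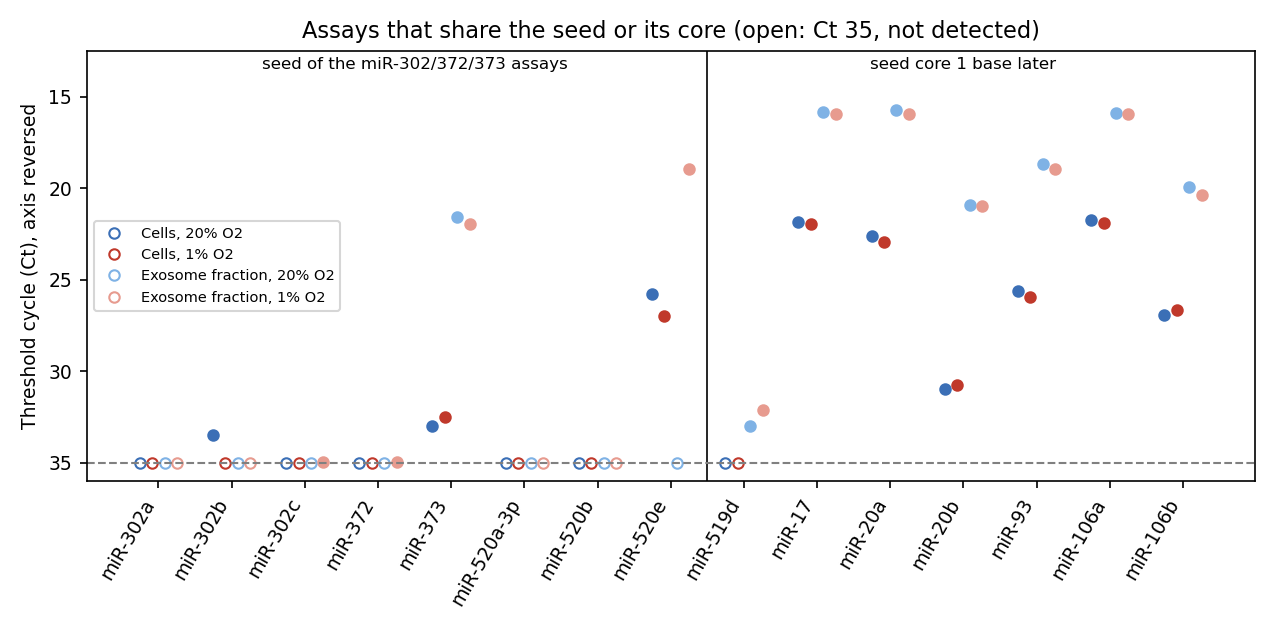
Ct of the 8 assays with the seed of miR-373 (left of the line) and the 7 with its core 1 base later (right) in the 4 samples, vertical axis reversed, open points at the ceiling of 35. On the left only miR-373 is measured in all 4 samples, and on the right 6 of 7 are.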

How the data were processed

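The Ct values are deposited by the authors as a score per well with no normalization, from TaqMan array cards read on a 7900HT cycler and processed with Data Assist 3.1, per the series' design text. The ratio of hypoxia over normoxia in the authors' second table was copied, not tested; for miR-373 it differed from the recomputed ratio by under 0.001 on the log2 scale. Each group is 1 sample, and separate cultures are not stated. A Ct carries no count, so no counting interval applies. From the Ct values, log2 changes, centred levels, ranks and bounds against Ct 35 were computed with python 3.11.15 and pandas 2.3.3. Only the calculation of the log2 change in cells was tested on simulated data, without a ceiling. Changes past 2-fold (oxygen) or 4-fold (compartment) were counted. Alternatives were other normalizers, centrings and detection limits. The members and lists were chosen with earlier results of these data known. Named miRNAs are the 6 members, their cluster and seed relatives, their nearest neighbours in Ct, the 5 most alike patterns and the controls. Others are miR-210 and miRNAs of the blood cell lists. miR-103 and some placental-cluster assays were named after their values were seen. A name or name with an arm was matched in RefSeq for 326 of 377 assays; the arm of unmarked names follows older miRBase usage.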

Additional observations from a re-analysis of the deposited data

Results flagged for a closer look

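miR-373 moved in opposite directions under hypoxia in the compartments, by 0.45 in cells and -0.34 in the exosome fraction on the log2 scale, a difference of -0.79. With 1 sample per group this difference was not tested. Opposite signs were found for 72 of the 138 miRNAs measured in all 4 samples.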

How the results depend on the processing

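No direction of miR-373 turned under any of the alternatives run, and miR-373, the only one of the 6 measured in both samples of a compartment, stayed within 2-fold under each normalizer. The change of miR-373 in cells was 0.31 with RNU44 and RNU48 as normalizers, and from 0.42 to 0.51 when each U6 well was left out in turn. The centred difference between exosome fraction and cells in normoxia and hypoxia was 5.13 and 4.52 when centred on the mean, 5.22 and 4.58 when centred on miRNAs under Ct 32, and 4.91 and 4.42 relative to the median difference of all 138, an alternative chosen after seeing the data. As a difference in percentile of Ct it was 57.2 and 49.3 points, the highest of the 138 in each. These are the same Ct values, and miR-373 was taken up with its difference in view, so this place is no test. With Ct under 32 as the limit of detection, 0 of the 6 assays were detected in either cell sample and 1 in the hypoxic exosome fraction, which was also 1 with Ct under 34. In the seed group of 8 the counts under Ct 32 were 1 in each cell sample and 2 in the hypoxic exosome fraction. The bound of miR-302b was -1.63 with RNU44 and RNU48. No paired analysis was possible because each group holds 1 sample and the labels carry no replicate numbers. Wells at 33 or later sit close to the ceiling, which limits what can be said of miR-302b, miR-302c and miR-372. The cell wells of miR-373 are little earlier, 2.01 cycles under the ceiling in normoxia and 2.47 in hypoxia. Its change in cells and its differences between exosome fraction and cells rest on these single late wells.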

Other observations

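Some further placental-cluster assays that hold the core AAGUGC at another position, or with another base after it, were named after their values were seen. miR-512-3p, with the core at bases 1 to 6 as in miR-371-3p, was at the ceiling in both cell samples and, in the exosome fraction, at 29.8 in normoxia and 29.99 in hypoxia. miR-519a, whose seed is AAGUGCA, was at 29.3 and 29.98 there and at the ceiling in cells. miR-519c-3p, with that same seed, was seen in the hypoxic exosome fraction only, at 33.98, and miR-519e in the normoxic one only, at 33.99. miR-520f and miR-520g stood at the ceiling in all 4 samples. Detection in the exosome fraction without detection in cells was common on the card: 81 of the 377 assays (21.5%) were at the ceiling in both cell samples and under 35 in at least 1 exosome sample, and 50 (13.3%) were under 35 in both. miR-520e, from the same cluster, was detected in both cell samples.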
